A study of Homo sapiens with 2 samples.

Results

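Ribonucleotide reductase and the enzymes that supply deoxynucleotides for DNA synthesis were followed in H1299 cells given p53 and in H1299 cells of a negative control. The 9 genes were RRM1, RRM2, RRM2B, TYMS, TK1, DUT, DCK, DTYMK and SAMHD1, out of 18417 genes that had a single symbol in the array's annotation. They were chosen by name and not by a threshold on their values, but with earlier results of these data known. All 9 were measured, by 10 probe sets. H1299 is a line of human lung carcinoma cells (non-small cell type) without p53 of its own. p53 is transcription factor that answers DNA damage with cell cycle arrest or cell death. Total RNA of each condition was read on 1 Affymetrix array. The labels name the 2 groups by treatment, p53 and negative control. The sources used here do not give how p53 was supplied, for how long, or what the negative control received.

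Deoxynucleotides come from 2 routes. In the de novo route ribonucleotide reductase turns ribonucleoside diphosphates into deoxyribonucleoside diphosphates, and in the salvage route kinases phosphorylate deoxynucleosides. Ribonucleotide reductase pairs a large catalytic subunit, encoded by RRM1, with a small subunit that carries a tyrosyl radical. The small subunit of dividing cells is encoded by RRM2 and peaks in S phase, while RRM2B (p53R2) encodes a second small subunit, known as a p53 target, that serves DNA repair and mitochondrial DNA outside S phase. TYMS, DUT and DTYMK act on the way to thymidine triphosphate, TK1 and DCK are salvage kinases, and SAMHD1 breaks deoxynucleoside triphosphates down.

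With 1 array per condition there is no replicate error and no test, so every difference describes these 2 arrays. Values are log2 intensities, and a difference is the value in the p53 array minus the value in the control array. A gene was called higher or lower where the 2 arrays differed by at least 2-fold. Genes were kept where the brighter array reached 7.38, the median of all probe sets, which left 11436 genes. All 9 genes were kept, and all 9 were above that level in both arrays. The p53 label was checked on CDKN1A, the gene of the p21 cyclin-dependent kinase inhibitor, at 12.66 with p53 and 9.18 in the control, and on MDM2, the ubiquitin ligase gene that p53 induces, at 13.59 and 10.87. Of 7 markers expected in a carcinoma line, 5 were above 7.38. KRT8, KRT18 and VIM stood between 12.47 and 13.07 in both arrays, while EPCAM and CDH1 were below 7.38. Of 5 markers of lung epithelium 1 was above 7.38, SCGB1A1 at 8.53 with p53 and 7.09 in the control, and the lung factor gene NKX2-1 stood at 6.43 in both arrays. Of 8 haematopoietic markers 3 were above 7.38, the summed log2 levels of the list being 57.1 with p53 and 56.7 in the control. Of 10 fibroblast and endothelial markers 1 was above 7.38, COL1A1 at 8.14, and all 10 were equal in both arrays.

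The sequences around the transcription starts are shown first, because p53 acts on many cell cycle genes through the factors that bind such promoters. E2F factors bind the E2F site and drive genes of S phase. NF-Y binds the CCAAT box. The cell cycle genes homology region (CHR) is bound by the DREAM and MuvB complexes, and p53 itself binds pairs of a decamer. RefSeq promoter windows on GRCh38.p14, each with 250 bases before a start and 50 after it, were found for 8 of the 9 genes, all but RRM2B, with 13 windows in all. For each gene the 30-base stretch with the most matches to these 4 motifs is given, and where stretches tied, the one nearest to the start. Sequences read 5′ to 3′ on the strand of the gene, and capitals mark the matches.
RRM1 (chr11:4094637-4094666, plus strand; p53 decamer, then CCAAT box): tccgccGGGCATGTCCatatCCAATggggc
RRM2 (chr2:10122660-10122689, plus strand; CCAAT box): cggggcaccaaagCCAATgggaagggccgg
TYMS (chr18:657603-657632, plus strand; E2F site on the other strand): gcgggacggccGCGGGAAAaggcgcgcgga
TK1 (chr17:78187082-78187111, minus strand; CCAAT box on the other strand): gggccggctcgtgATTGGccagcacgccgt
DUT (chr15:48332151-48332180, plus strand; E2F site on each strand): gctgGCGGGAAAtttcggtTTTGGCGCgct
DCK (chr4:70993659-70993688, plus strand; E2F site on the other strand): gctgcctccgcGCGCCAAAgtcaaaccccg
DTYMK (chr2:241686886-241686915, minus strand; CCAAT box, then CHR): ggccccggCCAATcccTTCGAAtttggccg
SAMHD1 (chr20:36951735-36951764, minus strand; CCAAT box and a second CCAAT box): caggaggCCAATaggctgCCAATactcctt

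The 2 small subunits of ribonucleotide reductase differed in opposite directions. RRM2 had a log2 intensity of 8.96 in the p53 array and 10.85 in the control array. Its difference was -1.89, a 3.71-fold lower level with p53. RRM2B had a log2 intensity of 11.39 in the p53 array and 9.22 in the control array. Its difference was 2.17, a 4.50-fold higher level with p53. The difference of RRM2 lay 4.06 below that of RRM2B on the log2 scale, so the ratio of the RRM2 signal to the RRM2B signal was 16.7-fold lower with p53 than in the control. Their intensities within an array were not set against each other, since they come from different probes. RRM2 ranked 105 from the lowest difference among the 11436 kept genes, and RRM2B ranked 199 from the highest.

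RRM1, the catalytic subunit that either small subunit needs, was on the side of RRM2B. It stood at 10.94 in the p53 array and 10.27 in the control array, a difference of 0.67 and a 1.59-fold higher level, short of 2-fold. The difference of RRM2 minus that of RRM1 was -2.56. Of all kept genes, 12.7% were as high as RRM1 or higher by this difference. The 3 subunit genes thus gave 3 different results: RRM2 lower, RRM2B higher, and RRM1 higher by less than 2-fold.

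**Figure D1:**
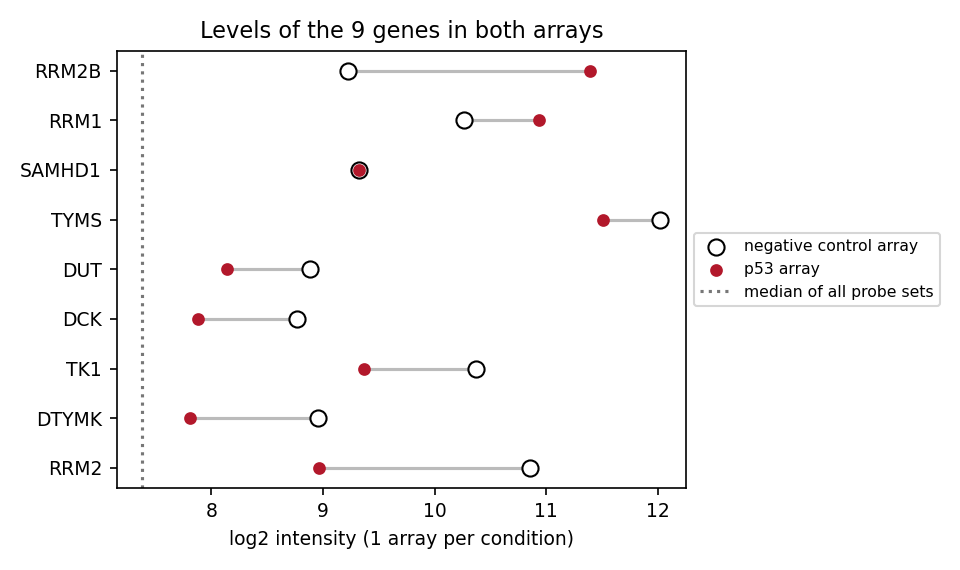
Log2 intensity of the 9 genes (x axis) in the negative control array (open circles) and in the p53 array (filled circles), 1 array per condition, with a grey line joining the arrays and a dotted line at 7.38, the median of all probe sets. Genes are ordered by their difference, from RRM2B at 2.17 to RRM2 at -1.89, and the SAMHD1 circles coincide.

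Of the 3 enzyme genes of thymidylate supply, DTYMK was at least 2-fold lower with p53, and DUT and TYMS had differences below 0 that were short of 2-fold. DTYMK, the thymidylate kinase gene, had the next lowest difference after RRM2. It had intensities of 7.80 in the p53 array and 8.96 in the control array, a difference of -1.15 and a 2.22-fold lower level. Its 2 probe sets held identical values, so they are 1 measurement. DUT, whose product splits dUTP and so both keeps uracil out of DNA and yields the substrate of thymidylate synthase, had intensities of 8.14 in the p53 array and 8.88 in the control array. The difference was -0.75, or 1.68-fold. TYMS, the thymidylate synthase gene, had intensities of 11.51 in the p53 array and 12.02 in the control array. With a difference of -0.51, or 1.43-fold, it was the closest to 0 of the 6 genes below 0, and 18.1% of kept genes were as low or lower.

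Both salvage kinase genes had differences below 0, near the 2-fold limit. TK1, the S phase thymidine kinase gene, had intensities of 9.37 in the p53 array and 10.37 in the control array. It was 2.01-fold lower, the value just inside the 2-fold limit. DCK, which encodes the deoxycytidine kinase and also phosphorylates purine deoxynucleosides, had intensities of 7.88 in the p53 array and 8.77 in the control array. Its difference of -0.89, or 1.85-fold, was the value just outside the limit. TK1 and DCK therefore fall on different sides of the limit with almost the same difference. TK1 was at -0.91 with a lowess trend of the difference on intensity removed, -0.97 with an offset of 32 before log2, -0.99 with quantile normalization and just under 2-fold when differences were centred on their median, so its call ends under each of these.

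SAMHD1, the triphosphohydrolase that empties the deoxynucleotide pool, held the same deposited value, 9.32, in both arrays. Equal values were common: 14.6% of kept genes and 35.9% of all probe sets held the same value in both arrays to the last deposited digit. The source of these equal values was not tested, and the SAMHD1 value is not taken as a measured absence of change.

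Of the 9 genes, 3 were at least 2-fold lower (RRM2, DTYMK and TK1), 1 was at least 2-fold higher (RRM2B) and 5 were neither. Among all kept genes 5.79% were at least 2-fold lower and 8.21% at least 2-fold higher. At 1.5-fold the 9 genes gave 5 lower and 2 higher, beside 15.5% and 14.4% of kept genes. At 3-fold RRM2 alone was lower and RRM2B alone was higher, beside 1.53% and 3.93% of kept genes. In sign, 6 of the 9 differences were below 0, 2 were above and 1 was equal. Their median was -0.75, that over all kept genes -0.01. Since the 9 genes were chosen with earlier results of these data known, these counts are a description only.

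**Figure D2:**
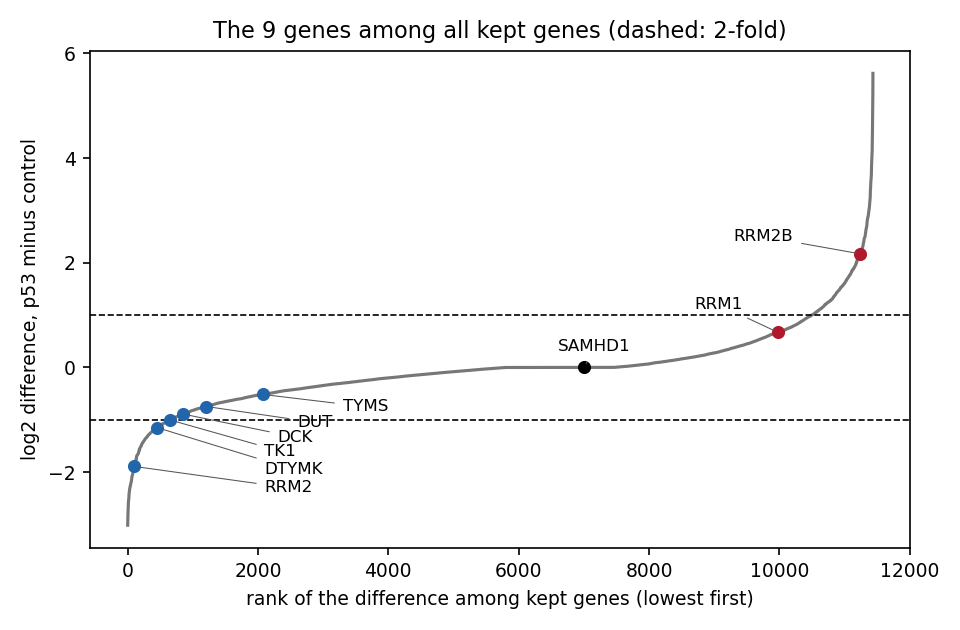
Log2 difference of all 11436 kept genes (y axis, p53 minus control) by rank from the lowest (x axis, grey line), with the 9 genes marked and dashed lines at 2-fold. RRM2 lies at rank 105 from the lowest and RRM2B at rank 199 from the highest, TK1 and DCK lie on either side of the lower dashed line, and SAMHD1 lies on the flat stretch of genes equal in both arrays.

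Genes of proliferation, most of them cell cycle genes that peak in S phase or mitosis, were set beside the 9 genes because RRM2, TK1 and TYMS are S phase genes. Of 15 such genes 12 were at least 2-fold lower with p53, beside 5.79% of kept genes. The median over all 15 was -2.01, and no gene of the list was 2-fold higher. The list was written with earlier results of these data known, so its count is a description and no independent yardstick. The 12 were MKI67, CDK1, PLK1, MCM6, AURKA, TOP2A, BUB1, CCNA2, MCM7, CCNB1, MCM2 and FOXM1. MKI67, the proliferation antigen gene, was at -2.22, MCM6, a subunit of the replicative helicase, at -2.09 and CCNA2, the cyclin of S phase, at -2.01. The difference of RRM2 was near this median, whereas those of TK1, DTYMK, DCK, DUT and TYMS were closer to 0. The 3 others, named after their values were seen, were PCNA, the replication clamp gene, at 0.71, GMNN, the inhibitor of replication licensing, at 0.38 and MCM5, a helicase subunit gene, at -0.89. A smaller share of cells in S phase and less of these RNAs per cell cannot be told apart in RNA of whole cultures, and the part of proliferation in the differences of the 9 genes was not tested.

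The rest of the pathway was followed in 8 lists, with 90 of 98 listed genes measured. These lists too were written with earlier results of these data known. Of these 90 genes, 9 were at least 2-fold lower, 5 were at least 2-fold higher and 76 were neither, with a median of -0.25. Of the 90, 87 were kept by the filter. Equal values in both arrays were held by 10 of the 90, and the median without these 10 was -0.36. Among all kept genes 5.79% were at least 2-fold lower and 8.21% at least 2-fold higher, with a median of -0.01. That median was -0.09 with genes equal in both arrays left out. The counts of the single lists below stand beside these shares. The folate cycle, which supplies the methyl group for thymidylate, and purine synthesis had the lowest medians of the 8 lists.

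Of 11 genes of the thymidylate and folate cycle, 2 were at least 2-fold lower and 1 was higher, with a median of -0.65. SHMT1, the cytosolic serine hydroxymethyltransferase gene, was 2.33-fold lower, at 7.22 with p53 and 8.44 in the control, and passed the filter through the control array alone. MTHFD1, a cytosolic enzyme gene of one-carbon units, was 2.23-fold lower. SHMT2, the mitochondrial counterpart of SHMT1, stood at -0.82. ALDH1L2, which encodes a mitochondrial formyltetrahydrofolate dehydrogenase, was the higher member, at 9.39 in the p53 array and 6.50 in the control array. Its 7.41-fold difference rests on a control value below the filter level. In this list 9 of 11 differences were below 0.

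Of 12 genes of de novo purine synthesis, 2 were at least 2-fold lower and 1 was higher, with a median of -0.61. GART, a trifunctional enzyme gene of the pathway, was 2.60-fold lower and PAICS, which encodes another of its multifunctional enzymes, 2.12-fold lower. PPAT, the gene of the committed step, stood at -0.90. PRPS2, a gene for phosphoribosyl pyrophosphate synthetase, was 3.02-fold higher, at 12.34 with p53 and 10.74 in the control. No gene of the 5 in de novo pyrimidine synthesis reached 2-fold. The lowest of these was CAD, the gene of the first 3 steps, at -0.59, followed by CTPS2 at -0.24 and UMPS at -0.21, while CTPS1 stood at 0.26 and the list median was -0.21.

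Kinases that act after ribonucleotide reductase or on monophosphates had a median of 0.00 over 10 genes, 3 of them equal in both arrays. AK1, an adenylate kinase gene, was 4.40-fold higher with p53, at 10.77 and 8.63, and CMPK1, the UMP and CMP kinase gene, was 2.92-fold higher, at 11.43 and 9.88. NME6 stood at -0.73 and AK4, a mitochondrial adenylate kinase gene, at 0.53. None of 16 salvage genes other than TK1 and DCK reached 2-fold, and their median was -0.10. HPRT1, the hypoxanthine salvage gene, stood at -0.58, ADA, the adenosine deaminase gene, at 0.55, DCTD, the dCMP deaminase gene, at -0.55 and UCKL1 at -0.43. The mitochondrial salvage kinase genes TK2 and DGUOK, named after their values were seen as counterparts of TK1 and DCK, stood at -0.27 and -0.13.

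Of 12 genes of nucleotidases and pool cleaning, DCTPP1, which encodes a dCTP pyrophosphatase, was 2.63-fold lower, at 10.01 with p53 and 11.41 in the control. The other 11 were neither, and 3 of these held equal values in both arrays. NT5C2 stood at -0.51, NT5M, a mitochondrial deoxynucleotidase gene, at -0.37 and NT5C3A at 0.35. The list median was -0.11, and -0.17 with the equal genes left out. Some members of the thioredoxin and glutaredoxin systems pass electrons to ribonucleotide reductase, and which of the listed genes do so was not tested. None of 9 genes of these systems reached 2-fold. Their median was -0.49, with GLRX5 at -0.93, GLRX2 at -0.69, TXNRD1, the cytosolic thioredoxin reductase gene, at -0.66 and GLRX at -0.54. Of the 9 differences 6 were below 0 and 3 above, and the median was -0.14 with the filter at the 75th percentile.

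Among 15 genes listed as regulators of ribonucleotide reductase or TK1, 4 were at least 2-fold lower and 1 was higher, with a median of -0.45. Which of the 15 act on these enzymes in H1299 cells was not tested. CHEK1, the replication checkpoint kinase gene, was 2.69-fold lower and CDC20, an activator of the anaphase-promoting complex, 2.62-fold lower. SKP2, a substrate receptor of the SCF ubiquitin ligase, and E2F8, a repressor of the E2F family, were 2.55-fold and 2.51-fold lower. E2F8 stood at 7.23 with p53, below the filter level. WEE1, the kinase gene that restrains CDK1, was the higher member at 2.24-fold. E2F1, an activator of S phase genes, stood at -0.98, next to the limit, and CCNF, whose product marks the RRM2 protein for degradation, at -0.45; both were named after their values were seen.

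**Figure D3:**
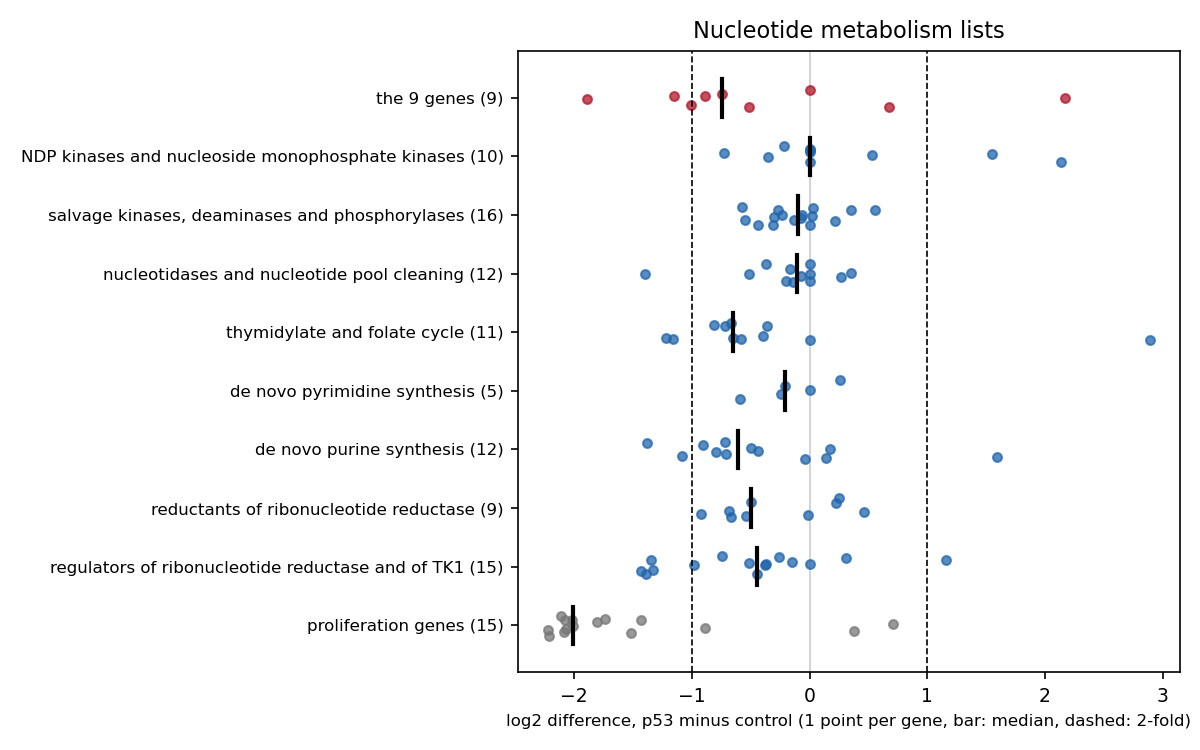
Log2 difference (x axis, p53 minus control) of the 9 genes and of the genes of each list (rows, number measured in brackets), 1 point per gene, with the median as a black bar and dashed lines at 2-fold. The proliferation genes have a median of -2.01, the 9 genes -0.75, and the lists of the wider pathway between -0.65 and 0.00.

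Kept genes with levels most like those of RRM2 and RRM2B were sought by the distance between their pairs of log2 intensities in the 2 arrays. For RRM2 the 3 nearest were MELK, NCAPG and TMPO, at distances of 0.05, 0.10 and 0.13. For RRM2B the 3 nearest were FAM27B, TGFBR1 and HSDL2, at distances of 0.04, 0.12 and 0.12. These distances rest on 2 arrays and set intensities of different probes side by side.

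The motif matches in the promoter windows were counted for all 35116 windows of the table as well. An E2F site was taken as TTTCCCGC, TTTCGCGC, TTTGCCGC or TTTGGCGC, and a CHR as either TTTGAA or TTCGAA. The letters of the other boxes were CCAAT for the CCAAT box and GGGCGG for the GC box. Both strands were searched. The p53 decamer was searched by its consensus. CCAAT boxes were found in 5 of the 8 genes (6 of 13 windows), against 34.6% of all windows. E2F sites were found in 3 of the 8 genes (3 of 13 windows), against 3.31% of all windows. The windows of a gene with several starts overlap or lie close together, so they are not independent.

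The 3 genes that were at least 2-fold lower, RRM2, TK1 and DTYMK, held CCAAT boxes and no match to the E2F letters given above. E2F sites with other letters were not searched, so no absence of E2F sites is meant. The 3 genes with differences below 0 but short of 2-fold, TYMS, DUT and DCK, held E2F matches and no CCAAT box. This division at 2-fold rests on TK1, which fell short of 2-fold under the 4 alternatives given above. A link between motif and difference was not tested. CCAAT boxes also stood in RRM1, which was 1.59-fold higher, and in SAMHD1, which was equal in both arrays. RRM2 had 3 CCAAT boxes, beginning 123, 93 and 66 bases before 1 of its starts. The E2F match of DCK lay 21 bases after its start, and the other E2F matches lay before the start. A CHR was found in RRM1, DUT and DTYMK (3 of 13 windows), against 16.4% of all windows, and that of DTYMK reads the same on both strands. GC boxes, which Sp1 binds, were found in 6 of the 8 genes (9 of 13 windows), against 45.0% of all windows. RRM2B had no window and was not searched. Of the 13 windows, 1 held a p53 decamer, that of RRM1, 42 to 33 bases before its start, against 6.63% of all windows. It stands alone, without a second decamer in the window. A match describes the letters only, and whether any factor binds there was not measured.

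**Figure D4:**
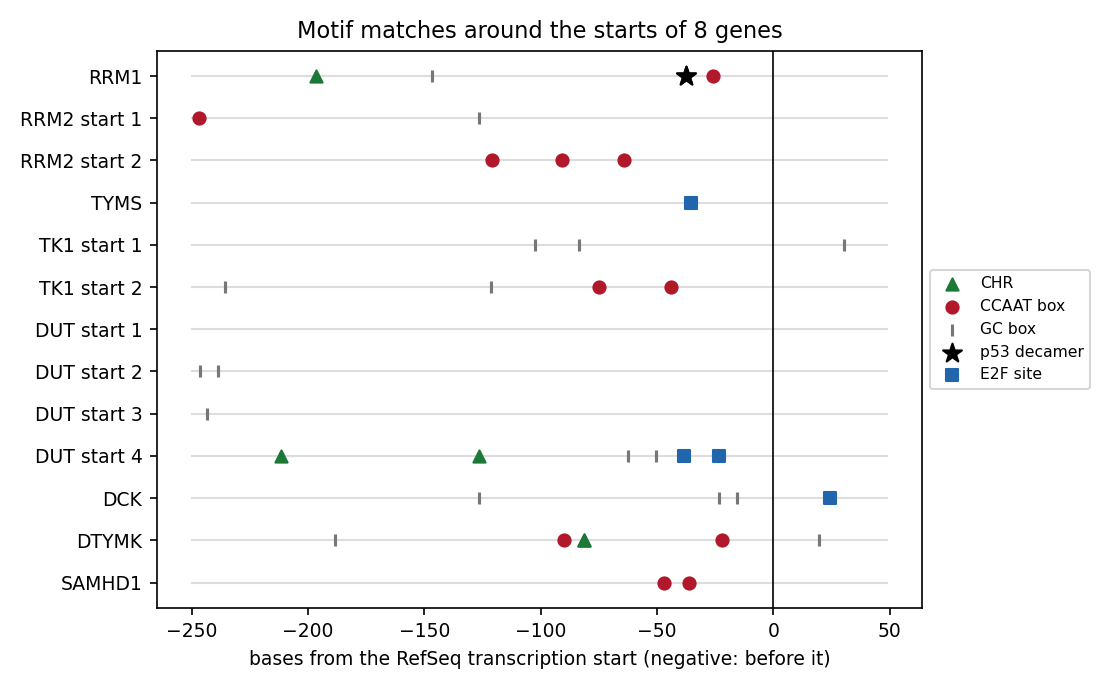
Positions of motif matches (symbols) in the 13 RefSeq windows of 8 genes, drawn in bases from the transcription start (x axis, negative before the start, which is the vertical line); several starts of a gene are numbered from the most upstream. CCAAT boxes stand before the starts of RRM1, RRM2, TK1, DTYMK and SAMHD1, E2F sites at TYMS, DUT and DCK, and the single p53 decamer at RRM1. RRM2B had no window and was not searched.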

How the data were processed

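For each probe set and array the deposited table holds 1 log2 intensity, which the authors made with RMA, per the submitters' processing notes; the log2 scale was read from the range of the values. RMA equalises the intensity distributions of arrays, so a change of total RNA per cell is not visible. The sources used here do not give the software version, probe set definition or genome build. An array gives no counts, and 1 array per group limits the precision.

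Of 33297 probe sets, 19460 with a single gene symbol in GEO's platform annotation were used. Where a gene had several, the one with the highest mean was taken. Genes were kept at a level of 7.38 in the brighter array. The 9 genes were picked by name, not by a threshold on their values, but they and all lists were chosen with earlier results of these data known. Genes named in the report were the 9, CDKN1A, MDM2, cell type markers and list members past 2-fold. Also named were, up to 4 per list, the next by size, and the 3 genes nearest to RRM2 and to RRM2B. Others are marked. The lists and genes of the closing section were chosen later still, after their values were seen. Listed genes without a usable probe set, ENOSF1 beside TYMS included, are not analysed here. No random sampling was used. The fold rule and the lowess step were run on simulated data with low noise and planted differences well past 2-fold. That run checks the code and does not bear on calls near the limit, such as that of TK1. Scripts ran in Python 3.11.15 with pandas 2.3.3, numpy 2.4.6, matplotlib 3.10.9 and statsmodels 0.14.6.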

Additional observations from a re-analysis of the deposited data

How the results depend on the processing

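The difference between RRM2 and RRM2B lay between -4.06 and -3.94 with a lowess trend removed (span 0.3), quantile normalization or an offset of 32 before log2. Centring on the median and the mean over probe sets cannot change it. No difference of the 9 genes moved under these 5 alternatives by more than 0.13, the spread between probe sets of a gene. The number of genes at least 2-fold lower among the 9 was 2 in place of 3 with centring, lowess, quantile normalization or the offset, where TK1 fell short, and when the filter stood at the 75th percentile, where DTYMK was left out. Counts followed the fold chosen. At 1.5-fold, 5 of the 9 genes were lower and 2 higher, 24 pathway genes were lower, and 1777 kept genes were lower and 1642 higher. At 3-fold, 1 of the 9 genes was lower, 0 pathway genes were lower and 3 higher, and 175 kept genes were lower and 450 higher. The median of the thioredoxin and glutaredoxin list was -0.14 with the filter at the 75th percentile. With genes equal in both arrays left out, which was chosen after seeing the data, the median over all kept genes was -0.09 in place of -0.01. No paired analysis was possible because each group has 1 array.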

Other observations

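Lists chosen after the data were seen were added for the places where deoxynucleotides are used outside nuclear replication. Of 13 genes of mitochondrial DNA maintenance, 1 was at least 2-fold higher with p53, none was lower, 3 were equal in both arrays, and the median was -0.02. The higher member was SLC25A4, an ADP/ATP carrier gene, 2.76-fold higher at 10.38 in the p53 array and 8.92 in the control array. Among the others, TFB2M, a mitochondrial transcription factor gene, stood at -0.82, TWNK, the mitochondrial helicase gene, at -0.75, SSBP1, the mitochondrial single-strand binding protein gene, at -0.56 and POLG, the mitochondrial polymerase gene, at -0.13. RRM2B, which serves mitochondrial DNA in resting cells, was 4.50-fold higher. Of these 13 genes 12 were within 2-fold, the 3 equal ones among them. Most kept genes were within 2-fold as well, with 5.79% at least 2-fold lower and 8.21% at least 2-fold higher.

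Of 3 measured genes of mitochondrial nucleotide and cofactor carriers none reached 2-fold, with a median of -0.54. SLC25A33, a pyrimidine nucleotide carrier gene, stood at -0.76, SLC25A32 at -0.54 and SLC25A36 at 0.26.

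Of 4 DNA glycosylase genes that remove uracil or thymine from DNA, 2 were at least 2-fold lower and 1 was higher. Among all kept genes the shares were 5.79% and 8.21%, and 4 genes are too few to set against them. UNG, the main uracil glycosylase gene, was 2.12-fold lower, at 8.30 in the p53 array and 9.38 in the control array. MBD4 was 2.12-fold lower as well, TDG was 2.31-fold higher, and SMUG1 stood at -0.09.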
